A study of Homo sapiens with 8 samples.

Results

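Chemokines are small secreted proteins that draw leukocytes along a gradient, and 10 of the genes of this system were followed in Kasumi-1 cells after introduction of NR4A1: the CXC ligands CXCL8, CXCL2, CXCL3 and CXCL16, the CC ligands CCL2 and CCL5, and the receptors CXCR4, CCR1, CCR2 and CCR7. Every probe set listed with exactly 1 gene symbol for these genes was taken, which gave 19 of 41091 such probe sets and 10 of 19775 genes. The genes were chosen with earlier results of the same arrays known, in which CXCL8 was lower after NR4A1 WT than after GFP, so the values of CXCL8 are given below as a description and without a test. Which measured values, if any, the other 9 genes were chosen by is not known here, so their tests place them among all probe sets and are not independent evidence of a direction.

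Kasumi-1 cells come from an acute myeloid leukemia (AML) with the AML-ETO translocation. They were electroporated with in vitro transcribed RNA encoding wild type NR4A1 (NR4A1 WT, 3 arrays), NR4A1 with a mutated zinc finger in its DNA binding domain (NR4A1 CEAA, 2 arrays), or GFP as the control (3 arrays), and RNA was taken after 6 h. Electroporation and a foreign RNA were therefore common to all groups, and all arrays came from 1 cell line. NR4A1 is an orphan nuclear receptor that binds DNA and acts as a tumor suppressor in myeloid cells. The array signal is a log2 intensity, so a difference of 1 is a change by a factor of 2, and levels of different probe sets are not amounts that can be set against each other. Whether the arrays of a group came from separate cultures is not stated, so the p-values measure the spread between these arrays, which may be technical.

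CXC ligands with a short receptor-binding motif (ELR) ahead of their cysteines, such as CXCL8, CXCL2 and CXCL3, attract neutrophils. CXCL8 acts through CXCR1 and CXCR2, and CXCL2 and CXCL3 through CXCR2. CCL2 attracts monocytes through CCR2, and CCL5 attracts T cells and monocytes through receptors that include CCR1. CXCR4 holds hematopoietic cells in the bone marrow, and CCR7 guides lymphocytes and dendritic cells to lymph nodes. The receptors signal through heterotrimeric G proteins of the Gi class. Transcription of CXCL8 and its neighbors is commonly driven by NFkB and AP-1, and their transcripts are short-lived.

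The promoters of CXCL8, CXCL2 and CXCL3 are shown. CXCL8 had the largest difference of the 10 genes, and CXCL2 was the other gene with a lower probe set after NR4A1 WT. CXCL3 is a close copy of CXCL2. The only CXCL3 probe set had no such difference, but it read near the median of all probe sets and may be background. The windows hold 250 bases before and 50 bases after the transcription start, are written 5′ to 3′ on the strand of the gene, and come from RefSeq with the build GRCh38.p14: CXCL8 at chr4:73740319-73740618 on the plus strand, CXCL2 at chr4:74099146-74099445 on the minus strand and CXCL3 at chr4:74038640-74038939 on the minus strand. Capitals mark the letters GGAATTTCC, an NFkB site of the type known from CXCL8, and TGACTCA, an AP-1 site.
CXCL8: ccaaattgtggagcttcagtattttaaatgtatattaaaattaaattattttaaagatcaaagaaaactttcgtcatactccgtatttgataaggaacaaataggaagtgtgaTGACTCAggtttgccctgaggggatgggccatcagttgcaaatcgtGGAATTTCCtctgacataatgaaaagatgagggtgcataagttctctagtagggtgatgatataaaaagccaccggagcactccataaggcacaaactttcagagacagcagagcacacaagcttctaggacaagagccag
CXCL2: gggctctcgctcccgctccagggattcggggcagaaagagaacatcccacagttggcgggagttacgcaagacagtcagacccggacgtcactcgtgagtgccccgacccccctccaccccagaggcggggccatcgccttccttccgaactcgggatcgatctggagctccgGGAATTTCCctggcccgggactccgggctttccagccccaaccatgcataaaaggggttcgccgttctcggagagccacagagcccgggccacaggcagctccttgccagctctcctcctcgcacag
CXCL3: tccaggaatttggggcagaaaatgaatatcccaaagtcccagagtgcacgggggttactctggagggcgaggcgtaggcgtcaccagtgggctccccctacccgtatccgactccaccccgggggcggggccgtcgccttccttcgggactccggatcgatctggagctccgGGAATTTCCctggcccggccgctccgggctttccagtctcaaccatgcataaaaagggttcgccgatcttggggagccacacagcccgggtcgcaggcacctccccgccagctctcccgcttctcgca

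The letters GGAATTTCC lay at -91 to -83 in CXCL8, -77 to -69 in CXCL2 and -78 to -70 in CXCL3, counted from the start site. They were found on either strand in 162 of 35116 promoters of the same length (0.461%). TGACTCA lay in CXCL8 at -137 to -131 and in CCR2 at -212 to -206, and was found in 4.95% of promoters. AAAGGTCA, the response element NBRE that NR4A receptors bind as monomers, was searched on both strands and found in 1.22% of promoters, and these letters were not in the windows of the members with an entry. Of the 10 genes, 6 had an entry. CXCL16, CCL2, CCL5 and CCR7 were not matched. The CXCL2 and CXCL3 windows were identical in 73.8% of the columns of their global alignment, against 47.9% for CXCL8 and CXCL2. A match or its lack is a description of letters and shows no binding.

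The arrays of a group were closer to each other than to those of other groups. The brightest NR4A1 probe set read 6.47 to 6.61 after NR4A1 WT, 6.52 to 6.56 after NR4A1 CEAA and 6.28 to 6.58 after GFP. Whether it can detect the introduced RNA is not known here, so it checks nothing about the group names. Over the 41091 probe sets, the SD of the differences between pairs of arrays was 0.208 to 0.222 within NR4A1 WT, 0.156 for the NR4A1 CEAA pair and 0.17 to 0.179 within GFP, and 0.286 to 0.408 between groups. Each of the 4 measured markers of the Kasumi-1 cell (CD34, KIT, MPO and RUNX1T1) read above the median of all probe sets in every array. Each of the 4 measured markers of mature monocytes read below it in every array. A signal above that median does not by itself tell the cell types apart. CXCR2 of neutrophils, CD3D of T cells, CD79A and CD79B of B cells, and HBB and SLC4A1 of erythroid cells also read above it throughout. Of the Kasumi-1 markers, CD34 was higher and RUNX1T1 lower for NR4A1 WT minus GFP (0.28 and -0.36, limma, adjusted p = 0.0408 and 0.00316), and KIT was higher for NR4A1 CEAA minus GFP (0.25, adjusted p = 0.0294). The monocyte marker FCN1 was lower for NR4A1 CEAA minus GFP (-0.40, adjusted p = 0.0429). Of the markers of other blood cells, 0 of 4 for monocytes, 0 of 5 for neutrophils, 0 of 5 for T cells and 0 of 3 for erythroid cells were called for NR4A1 WT minus GFP. The B cell gene CD79B moved with the groups, at 7.14 ± 0.16 after NR4A1 WT (SD, n = 3), 6.20 ± 0.12 after NR4A1 CEAA (SD, n = 2) and 6.76 ± 0.02 after GFP (SD, n = 3), and was the only 1 of 4 measured B cell markers called after NR4A1 WT. The part of these markers in the results on chemokines was not tested.

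Brightness divided the 19 probe sets. The median of all probe sets was 4.755 to 4.802 in the 8 arrays, and a signal under it may be background. In all 8 arrays, 5 probe sets read above it (the 3 of CCL5, 202859_x_at of CXCL8 and 209774_x_at of CXCL2) and 9 read below it. The 9 below were the other 2 of CXCL2, the CCL2 probe set, 217028_at of CXCR4, and all those of CCR1, CCR2 and CCR7. Another 5 read above it in some arrays only, among them 211506_s_at of CXCL8 in 7 of 8. All 19 entered the fit with 41091 probe sets, and no filter on low values was applied.

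**Figure D1:**
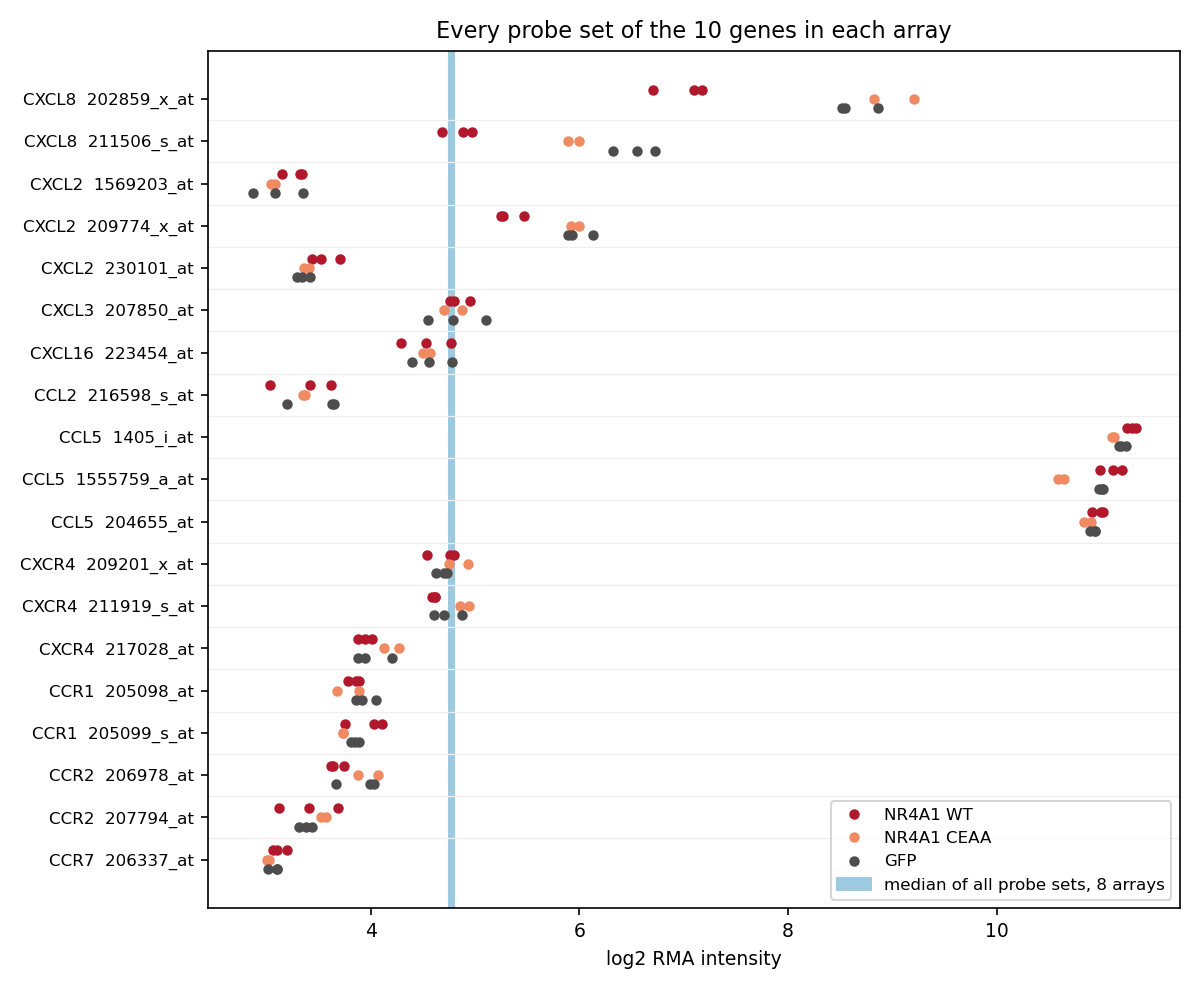
Log2 intensity (horizontal) of the 19 probe sets in each array, with NR4A1 WT, NR4A1 CEAA and GFP drawn above each other for each probe set and the range of the array medians as a blue band. The 3 CCL5 probe sets lie at 10.59 to 11.33 in all arrays, and the CCR1, CCR2 and CCR7 probe sets lie below the band.

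Of the genes that attract neutrophils, CXCL8 was lower after NR4A1 WT in both of its probe sets. Probe set 202859_x_at read 7.10, 7.18 and 6.71 after NR4A1 WT, 9.21 and 8.82 after NR4A1 CEAA, and 8.86, 8.52 and 8.55 after GFP. The NR4A1 WT arrays lay apart from and below all others, and the NR4A1 CEAA and GFP arrays overlapped. The group means were 7.0 ± 0.25 after NR4A1 WT (SD, n = 3), 9.02 ± 0.27 after NR4A1 CEAA (SD, n = 2) and 8.64 ± 0.19 after GFP (SD, n = 3). NR4A1 WT minus GFP was -1.65, a level 3.13-fold lower. Against NR4A1 CEAA the difference was -2.02, a level 4.05-fold lower. In bulk samples fewer cells of a kind and less RNA per cell cannot be told apart.

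The other CXCL8 probe set, 211506_s_at, read 4.97, 4.68 and 4.89 after NR4A1 WT, 6.00 and 5.89 after NR4A1 CEAA, and 6.73, 6.32 and 6.55 after GFP. Here the 3 groups did not overlap, in the order NR4A1 WT, NR4A1 CEAA, GFP, and the NR4A1 WT arrays reached the median of all probe sets. At that level the NR4A1 WT signal may be background, so the sizes that follow may understate the difference. NR4A1 WT minus GFP was -1.68, and against NR4A1 CEAA the difference was -1.10.

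After NR4A1 CEAA the CXCL8 probe sets differed in direction. NR4A1 CEAA minus GFP was 0.37 in 202859_x_at, where the arrays of these groups overlapped, and -0.58 in 211506_s_at, where they did not. Within an array, the first stood above the second by 2.12, 2.51 and 1.82 after NR4A1 WT, by 3.20 and 2.93 after NR4A1 CEAA, and by 2.13, 2.20 and 2.00 after GFP. The gap was therefore wider in the NR4A1 CEAA arrays and overlapped between NR4A1 WT and GFP. The suffix _x_at marks a probe set in which some probes may also match other transcripts, and the positions of both probe sets along CXCL8 are not known here. How CXCL8 stood after NR4A1 CEAA is thus not settled by these arrays.

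CXCL2, a ligand of CXCR2 close to CXCL1 and CXCL3 in sequence, fell after NR4A1 WT in its brightest probe set. Probe set 209774_x_at read 5.47, 5.25 and 5.27 after NR4A1 WT, 6.00 and 5.92 after NR4A1 CEAA, and 6.13, 5.89 and 5.93 after GFP. All NR4A1 WT arrays lay below all other arrays, and the other groups overlapped. The fall against GFP was -0.65 (SE 0.09, limma, adjusted p = 0.00158 over 41091 probe sets), a level 1.57-fold lower. NR4A1 CEAA minus GFP was -0.02 (95% interval -0.25 to 0.20, limma, adjusted p = 0.921), and NR4A1 WT minus NR4A1 CEAA, the test of the difference between the proteins, was -0.63 (SE 0.10, limma, adjusted p = 0.00179). Rank Product did not keep the last call (q = 0.285).

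The other 2 CXCL2 probe sets did not follow it. They read below that median in every array, 1569203_at between 2.87 and 3.35 and 230101_at between 3.30 and 3.71. Differences of 0.17 and 0.20 stood there for NR4A1 WT minus GFP (limma, adjusted p = 0.416 and 0.142), positive where the brightest probe set was negative. In 230101_at all NR4A1 WT arrays, at 3.44, 3.53 and 3.71, lay above the GFP arrays, at 3.34, 3.30 and 3.42. Because CXCL1, CXCL2 and CXCL3 are near-copies and 209774_x_at carries the suffix of probes that may match other transcripts, its assignment to CXCL2 alone is uncertain.

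**Figure D2:**
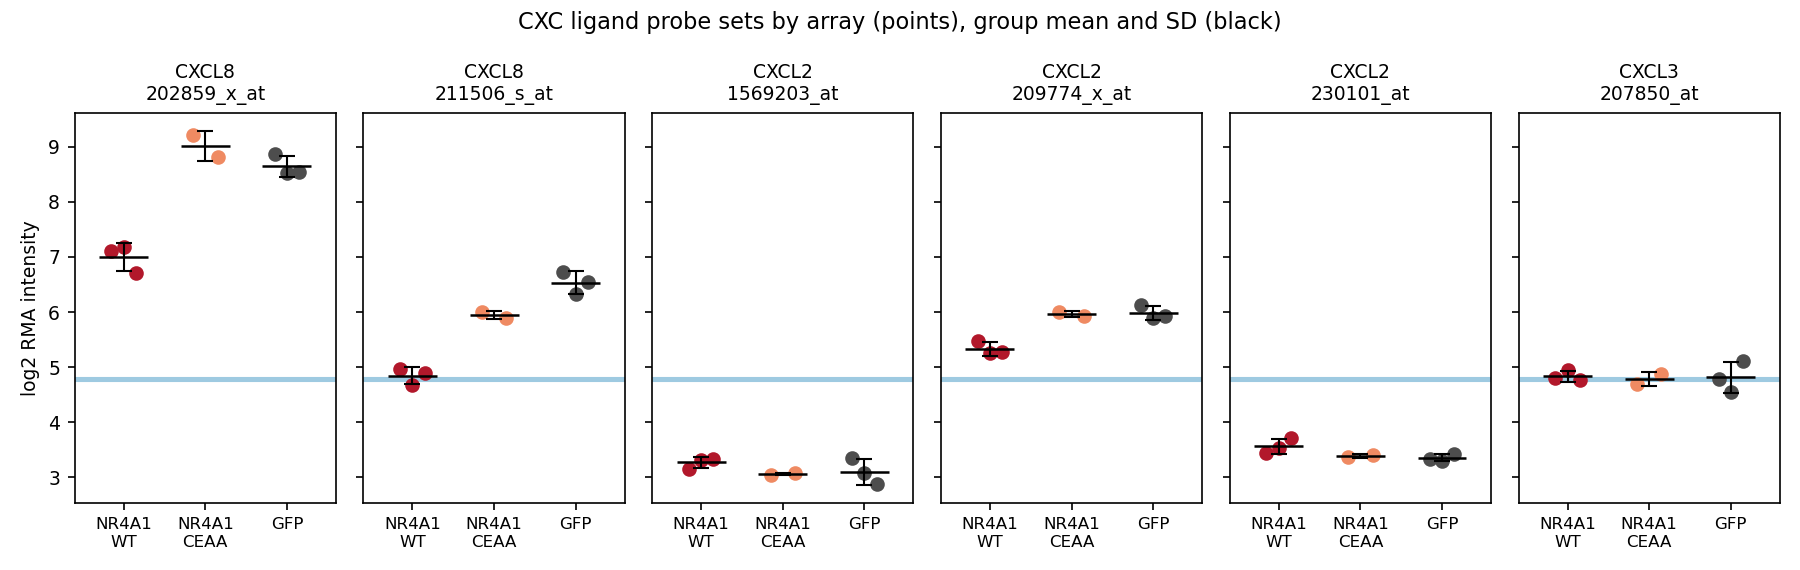
Log2 intensity (vertical) of the CXCL8, CXCL2 and CXCL3 probe sets in each array (points) after NR4A1 WT (n = 3), NR4A1 CEAA (n = 2) and GFP (n = 3), with group mean and SD in black and the range of array medians as a blue band. Both CXCL8 probe sets and 209774_x_at of CXCL2 have all NR4A1 WT points below the others, and the NR4A1 CEAA points stand above or among GFP in 202859_x_at but below GFP in 211506_s_at.

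CXCL3, covered by 1 probe set at the median of all probe sets, read 4.80, 4.95 and 4.76 after NR4A1 WT, 4.70 and 4.88 after NR4A1 CEAA, and 4.79, 4.55 and 5.11 after GFP. The GFP arrays spanned both other groups. NR4A1 WT minus GFP was 0.02 with a 95% interval of -0.28 to 0.32 (limma, adjusted p = 0.949). A fall of the size in CXCL2 lay outside the interval, but this signal may be background, where a fall could not be seen. The neighboring gene CXCL1, which is not among the 10 but has the same NFkB letters at -78 to -70, fell after NR4A1 WT to 5.09 ± 0.09 (SD, n = 3), against 5.54 ± 0.13 after GFP (SD, n = 3), a difference of -0.45 (limma, adjusted p = 0.00675). It stood at 5.70 ± 0.03 after NR4A1 CEAA (SD, n = 2), and NR4A1 WT minus NR4A1 CEAA was -0.61 (limma, adjusted p = 0.00143). Both calls of CXCL1 were lost with Rank Product only.

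CXCL16, a transmembrane chemokine that is also a scavenger receptor, read 4.77, 4.29 and 4.53 after NR4A1 WT, 4.57 and 4.50 after NR4A1 CEAA, and 4.40, 4.56 and 4.78 after GFP. The groups overlapped, and NR4A1 WT minus GFP was -0.05 (95% interval -0.35 to 0.25, limma, adjusted p = 0.87).

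Among the CC ligands, CCL5 (also called RANTES) had a strong signal in all groups, and 1 of its 3 probe sets fell after NR4A1 CEAA. Probe set 1555759_a_at read 10.99, 11.20 and 11.11 after NR4A1 WT, 10.64 and 10.59 after NR4A1 CEAA, and 11.01, 10.98 and 11.02 after GFP. The NR4A1 CEAA arrays lay below all others, and those of NR4A1 WT and GFP overlapped. NR4A1 CEAA minus GFP was -0.39 (SE 0.08, limma, adjusted p = 0.0104), a level 1.31-fold lower. Without either NR4A1 CEAA array the call was lost, at an adjusted p = 0.0621 and 0.084 in limma, and Rank Product did not make it (q = 0.333). NR4A1 WT minus NR4A1 CEAA was 0.49 (SE 0.08, limma, adjusted p = 0.00171), lost with Rank Product alone (q = 0.307).

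The brightest CCL5 probe set, 1405_i_at, read 11.30, 11.33 and 11.25 after NR4A1 WT, 11.10 and 11.12 after NR4A1 CEAA, and 11.19, 11.24 and 11.17 after GFP. The groups had the same order as in 1555759_a_at and did not overlap, but the differences were small: 0.09 for NR4A1 WT minus GFP and -0.09 for NR4A1 CEAA minus GFP (limma, adjusted p = 0.374 and 0.413), and 0.18 for NR4A1 WT minus NR4A1 CEAA (limma, adjusted p = 0.0712). Probe set 204655_at read 10.84 to 11.02 in all arrays, with NR4A1 CEAA minus GFP at -0.05 (95% interval -0.20 to 0.10). A fall of 0.39 lay outside the intervals of these 2 probe sets, so the change after NR4A1 CEAA was shown by 1 probe set of the gene.

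CCL2, which recruits monocytes, was covered by 1 probe set that read 3.42, 3.62 and 3.04 after NR4A1 WT, 3.37 and 3.35 after NR4A1 CEAA, and 3.63, 3.65 and 3.20 after GFP. All arrays lay below the median of all probe sets and the groups overlapped. Both differences from GFP were -0.13 (limma, adjusted p = 0.691 and 0.704 for NR4A1 WT and NR4A1 CEAA).

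The receptors were dim. CXCR4, the receptor of CXCL12, had 3 probe sets with means near or below the median of all probe sets, and none was called against GFP. In 211919_s_at the arrays read 4.59, 4.62 and 4.62 after NR4A1 WT, 4.86 and 4.94 after NR4A1 CEAA, and 4.70, 4.88 and 4.61 after GFP. The NR4A1 CEAA and NR4A1 WT arrays did not overlap, and GFP spanned the space between. NR4A1 WT minus NR4A1 CEAA was -0.29 (SE 0.09, limma, adjusted p = 0.0396), a call that was lost in 12 of 17 alternatives, with adjusted p between 0.0184 and 0.212 over those fitted with limma. In 209201_x_at and 217028_at the same difference was -0.14 and -0.25 (limma, adjusted p = 0.343 and 0.124). NR4A1 CEAA minus GFP was 0.15, 0.17 and 0.19 in the 3 probe sets (limma, adjusted p = 0.336, 0.245 and 0.29), values that miss the threshold and do not show that the groups were alike.

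CCR1, a receptor of CCL5, read 3.68 to 4.05 and 3.74 to 4.11 in its 2 probe sets, CCR2, the receptor of CCL2, 3.62 to 4.07 and 3.12 to 3.69, and CCR7 3.01 to 3.20. None of these 5 probe sets reached the median of all probe sets in any array, and none was called in any comparison. Probe set 206978_at of CCR2, which had the largest difference of these 5, read 3.62, 3.75 and 3.64 after NR4A1 WT, 3.88 and 4.07 after NR4A1 CEAA, and 3.67, 4.03 and 3.99 after GFP. The NR4A1 WT arrays lay below the NR4A1 CEAA arrays, and GFP replicate 1 lay among the NR4A1 WT arrays with the other GFP arrays above these. NR4A1 WT minus NR4A1 CEAA was -0.30 (limma, adjusted p = 0.0976), and called without GFP replicate 1 (adjusted p = 0.0376). The difference NR4A1 WT minus GFP was -0.23 (limma, adjusted p = 0.223), and -0.34 without GFP replicate 1 (adjusted p = 0.048).

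Without CXCL8, 17 probe sets of 9 genes remained. For NR4A1 WT minus GFP, 1 of the 17 passed the test lower (of CXCL2) and 0 higher, against 13.6% called of all probe sets in either direction. For NR4A1 CEAA minus GFP, 1 passed lower (of CCL5) and 0 higher, against 15.8% of all probe sets. For NR4A1 WT minus NR4A1 CEAA, 2 passed lower (1 each of CXCL2 and CXCR4) and 1 higher (of CCL5), against 26.4% of all probe sets. The median difference of the 17 was 0.02, -0.04 and 0.04 in these comparisons, against 0.00, -0.01 and 0.02 over all. The arrays of the groups lay apart in 3, 5 and 11 of the 17 probe sets, against 30.3%, 48.7% and 50.2% of all. The comparisons with GFP share its 3 arrays.

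**Figure D3:**
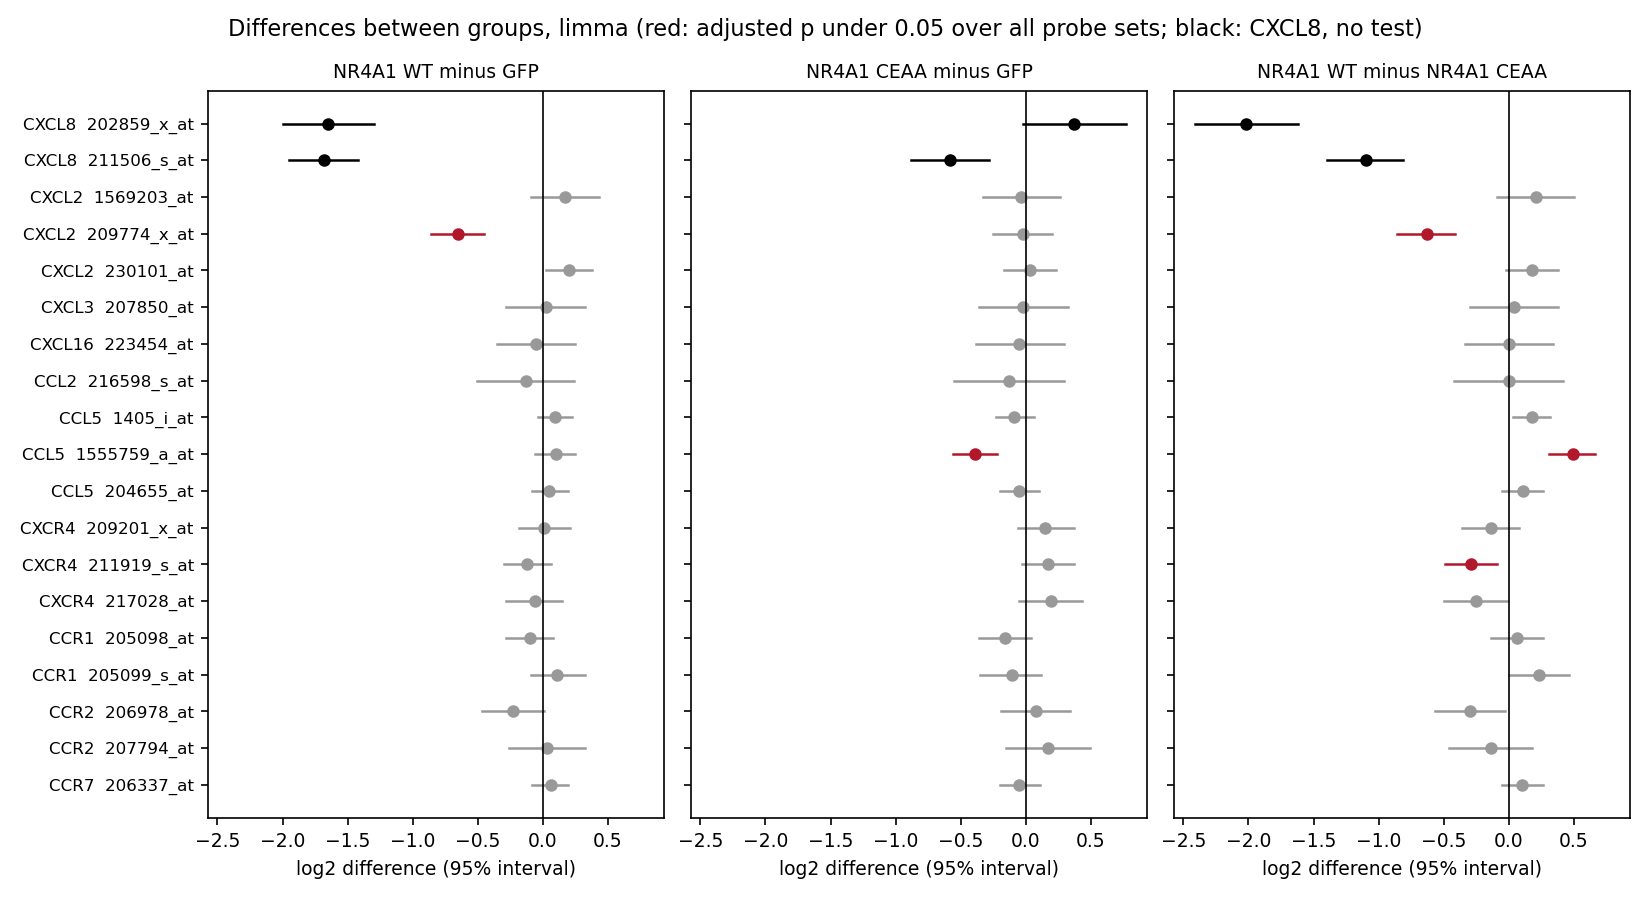
Log2 differences (horizontal) with 95% intervals from limma for the 19 probe sets in the 3 comparisons on a common axis. Red marks an adjusted p under 0.05 over 41091 probe sets, grey the rest, and CXCL8 is black because it is given without a test. The intervals drawn for CXCL8 take no account of its choice with its fall known. CXCL8 stands at -1.65 and -1.68 for NR4A1 WT minus GFP, and all other probe sets lie between -0.65 and 0.20 there.

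The remaining genes of the system were each followed by their brightest probe set. Of the other 13 CXC ligands, 10 read below the array median throughout, and 1 fell after NR4A1 WT (CXCL1) while 0 rose, beside 8.76% of all genes lower and 8.18% higher. Of 20 other CC, XC and CX3C ligands measured, 2 fell after NR4A1 WT. CCL4, which attracts monocytes and lymphocytes, read 4.65 ± 0.18 after NR4A1 WT (SD, n = 3), 4.65 ± 0.09 after NR4A1 CEAA (SD, n = 2) and 5.13 ± 0.15 after GFP (SD, n = 3), lower in both comparisons (differences of -0.47 and -0.48, limma, adjusted p = 0.021 and 0.0303). The second, CCL25, was below the array median throughout, with differences of -0.30 and -0.30 (limma, adjusted p = 0.0298 and 0.0436). The CCL4 calls were lost in 6 of 18 alternatives after NR4A1 WT and 7 of 18 after NR4A1 CEAA, and those of CCL25 in 9 of 17 and 11 of 17. After NR4A1 CEAA, 3 of the 20 fell, beside 10.5% of all genes lower and 5.95% higher. The third, CCL22, stood at -0.28 (limma, adjusted p = 0.0236), and this call was lost in 8 of 18 alternatives.

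Of the 17 other receptors measured, 2 rose after NR4A1 WT and 0 fell, beside 8.18% of all genes higher and 8.76% lower. CCRL2, a receptor that binds chemerin and does not drive migration, read 4.21 ± 0.14 after NR4A1 WT (SD, n = 3) and 3.56 ± 0.20 after GFP (SD, n = 3), a difference of 0.64 (limma, adjusted p = 0.00743), and CCR6, the receptor of CCL20, 4.14 ± 0.03 after NR4A1 WT (SD, n = 3) and 3.65 ± 0.11 after GFP (SD, n = 3), a difference of 0.48 (limma, adjusted p = 0.00368). Both lay below the array median throughout, and Rank Product did not call CCR6 (q = 0.14). CXCR3, the receptor of the interferon-induced CXC ligands, fell after NR4A1 CEAA to 5.17 ± 0.01 (SD, n = 2), against 5.73 ± 0.10 after GFP (SD, n = 3), a difference of -0.56 (limma, adjusted p = 0.00345), which Rank Product did not call (q = 0.0841). The other CXCR3 probe set was not called in this comparison. For NR4A1 WT minus NR4A1 CEAA, 4 of the 17 receptors were higher and 0 lower, beside 16.5% of all genes higher and 12.2% lower. The receptors of CXCL8 read 5.52 to 5.82 (CXCR1) and 5.92 to 6.36 (CXCR2) in the arrays, and neither was called against GFP (CXCR2, NR4A1 WT minus GFP -0.25, limma, adjusted p = 0.0825).

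**Figure D4:**
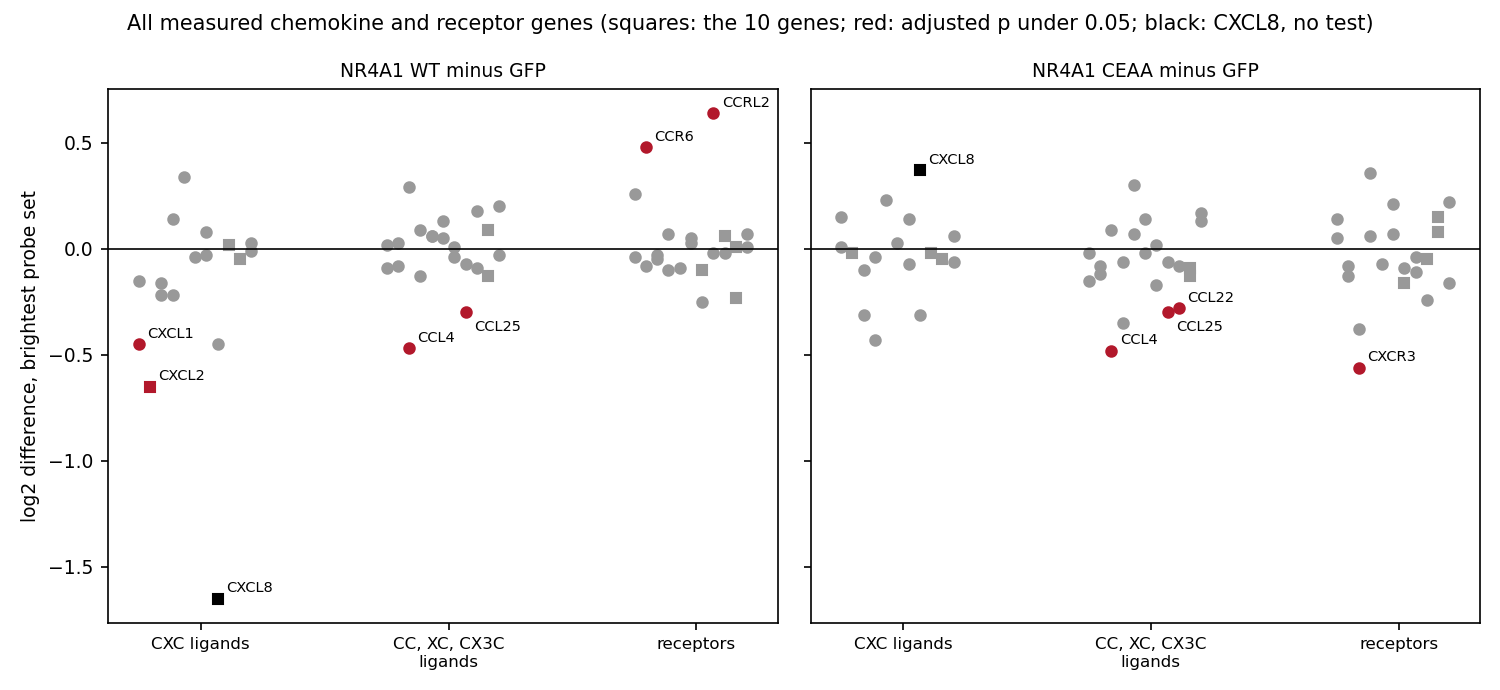
Log2 difference (vertical) from GFP after NR4A1 WT and after NR4A1 CEAA of each measured CXC ligand, other ligand and chemokine receptor by its brightest probe set. Squares are the 10 genes, red an adjusted p under 0.05, and CXCL8 is black because it is given without a test. Beside CXCL8, only CXCL2 and CXCL1 are called among the CXC ligands after NR4A1 WT, and CXCL10 lies at -0.45 like CXCL1 without a call. CCRL2 and CCR6 lie highest of the receptors there.

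Of 16 measured genes that inflammatory signals often induce together with CXCL8, 1 rose and 1 fell after NR4A1 WT, beside 8.18% of all genes higher and 8.76% lower. TNF, the inflammatory cytokine, rose to 6.85 ± 0.16 (SD, n = 3), against 6.09 ± 0.21 after GFP (SD, n = 3), a difference of 0.76 (limma, adjusted p = 0.00432), and IRAK2, a kinase of interleukin-1 and Toll-like receptor signals, fell to 7.14 ± 0.13 (SD, n = 3), against 7.74 ± 0.06 after GFP (SD, n = 3), a difference of -0.60 (limma, adjusted p = 0.00163), which Rank Product did not call (q = 0.0502). After NR4A1 CEAA 1 of the 16 rose (IL1A, 0.36, below the array median) and 2 fell (ICAM1, -0.42, and NFKBIA, -0.32), beside 5.95% of all genes higher and 10.5% lower, and Rank Product called none of these 3. AU-rich elements are sequences that shorten the life of chemokine transcripts. Of the 8 measured genes whose proteins bind them, 2 fell in RNA and 0 rose after NR4A1 WT, beside 8.76% of all genes lower and 8.18% higher. These were ZFP36L2, by a difference of -0.68 (limma, adjusted p = 0.000103), and ELAVL1, by one of -0.24 (limma, adjusted p = 0.0256). The ELAVL1 call was lost in 7 of 18 alternatives. Genes of these lists were counted by their brightest probe set. For NR4A1 WT minus GFP, no other probe set of IRAK2 or ELAVL1 was called. For ZFP36L2, 2 others were lower, and 1 other of PTGS2 was higher. Of these 2 lists, 12 of the 16 and 7 of the 8 genes read above the array median throughout, whereas the shares over all genes include dim ones.

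The genes most like CXCL8 across the 8 arrays, by Pearson's r with 202859_x_at among 5335 genes whose SD was at least 0.2, were NOP58 (r = 0.996), GRB2 (0.993), PRKCQ-AS1 (0.993), METTL8 (0.989) and CEBPD (0.989). NR4A1 WT minus GFP was -0.44 in NOP58, a gene of ribosomal RNA modification, and -0.65 in CEBPD, a transcription factor of myeloid cells, and NR4A1 CEAA minus GFP was 0.10 in both. The arrays form 3 treatment groups, so these values carry the differences between the groups. With the other CXCL8 probe set or with Spearman's rho, 0 of the 5 genes were the same. For CXCR4 by 209201_x_at, the most alike were CX3CR1 (0.93), ATRNL1 (0.919), EFCAB3 (0.894), MADCAM1 (0.891) and LHX4-AS1 (0.876), of which 1 stayed with Spearman's rho and 0 with either of the other probe sets. Probe set 209201_x_at read above the array median in 2 of 8 arrays, and CX3CR1 in 0. The group means of ATRNL1 and EFCAB3 also lay below it, and those of LHX4-AS1 above. Some of these correlations may thus be between background signals.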

How the data were processed

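Kasumi-1 cells were compared 6 h after electroporation with RNA for NR4A1 WT (3 arrays), NR4A1 CEAA (2) or GFP (3). The deposited values are log2 intensities from Affymetrix U133 Plus arrays, which the authors made by Robust Multiarray Analysis in RMA Express, with background correction, quantile normalization and summary over probes (version not given in the sources used here). No detection calls were used. Of 54613 probe sets, 41091 had exactly 1 gene symbol (1801 several, 11721 none). By gene identifier 41037 of these were found in the gene table, and 0 symbols changed.

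The 3 groups entered 1 fit (lmFit and eBayes of limma 3.58.1, R 4.3.3), with Benjamini-Hochberg adjusted p under 0.05 over all 41091 probe sets. The 3.52 prior degrees of freedom gave 8.52 in all. Folds are 2 to the power of the log2 difference. Every probe set of the members is given. Of each other list, at most 4 called genes per comparison with the largest difference of their brightest probe set could be named, and the 5 genes most alike by Pearson's r. Alternatives included Rank Product (the test of the study's methods, 100 permutations). The members and lists were chosen with earlier results of these data known. The number of arrays limits the precision.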

Additional observations from a re-analysis of the deposited data

How the results depend on the processing

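Of the 5 called differences of members other than CXCL8, 69 of 87 alternative values kept the call, 18 lost it and 0 changed sign. The counts of member calls in this paragraph include CXCL8, whose fall was known when it was chosen. Member calls for NR4A1 WT minus GFP numbered 3 or 4, against 3. With 1 probe set per gene (10 tested) they numbered 2, and 211506_s_at of CXCL8 did not enter there. For NR4A1 CEAA minus GFP, the 2 called probe sets are not the brightest of their genes. They did not enter with 1 probe set per gene, so that setting did not retest them. The 2 calls became 0 at an adjusted p under 0.01 and 0 with Rank Product, and numbered 1 or 2 with a GFP or NR4A1 WT array left out. Those of CXCL8 and CCL5 were both lost without NR4A1 CEAA replicate 1 and without NR4A1 CEAA replicate 2, and that of CXCL8 also without GFP replicate 3. For NR4A1 WT minus NR4A1 CEAA, the 5 calls became 1 with Rank Product. With 1 probe set per gene 3 were called there, and the called probe sets 211506_s_at, 1555759_a_at and 211919_s_at did not enter. Of 777 alternative values for the 46 differences not called in members other than CXCL8, 6 gained a call, among them 1405_i_at of CCL5 for NR4A1 WT minus NR4A1 CEAA (0.18, limma, adjusted p = 0.0393 with 1 probe set per gene, 0.00152 with an intensity trend and 0.0229 with dim probe sets filtered) and 205099_s_at of CCR1 (0.33, adjusted p = 0.0137 without NR4A1 WT replicate 3). With dim probe sets filtered, only 16 of the other 50 chemokine and receptor genes entered, and 3 were called for NR4A1 WT minus GFP. That filter removed dim genes and did not retest them. Over all 50, 5 were called for that comparison, against 3 at an adjusted p under 0.01, 1 with Rank Product and 3 to 6 with an array left out. For NR4A1 CEAA minus GFP 4 were called, against 9 with array weights, 1 with the replicate block, 1 at an adjusted p under 0.01, 0 with Rank Product and 1 to 5 with an array left out. For NR4A1 WT minus NR4A1 CEAA 6 were called, against 0 with Rank Product. The cause was not tested.

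Replicate numbers did not pair the arrays, since the deviations of equally numbered arrays from their group means correlated at -0.032 to 0.071. With the replicate block, 3, 2 and 4 of the 19 probe sets, those of CXCL8 included, were called in the comparisons named above, against 3, 2 and 5. Over all probe sets the calls for NR4A1 WT minus GFP numbered 5590, against 3052 at an adjusted p under 0.01 and 1378 with Rank Product. For NR4A1 CEAA minus GFP they numbered 6476 of 41091, against 4045 with the replicate block and 2674 at an adjusted p under 0.01. Rank Product gave 867 there, and the fits without GFP replicate 1 and without GFP replicate 3 gave 4191 and 3809. For NR4A1 WT minus NR4A1 CEAA they numbered 10829 of 41091, against 6704 at an adjusted p under 0.01 and 1026 with Rank Product. With 1 probe set per gene, 3796 and 6225 were called in these comparisons. Only 19775 probe sets were tested in that setting, so its lower counts do not show a loss of calls. Where either NR4A1 CEAA array was left out, fewer probe sets were called in both comparisons that hold NR4A1 CEAA. The other array was then assumed to vary like the arrays of the other groups, so those counts are not given. Of the 19 probe sets, 14 read below the median of all probe sets in at least 1 array, and such signals limit what could be detected there. Among the 14 is 211506_s_at of CXCL8, which read below it in NR4A1 WT replicate 2 only.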

Other observations

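Genes that act behind chemokine receptors inside the cell were also measured. Of 20 measured genes that couple receptors to G proteins or shut them down, 4 rose and 7 fell after NR4A1 WT, beside 8.18% of all genes higher and 8.76% lower. GRK3, a kinase that desensitizes such receptors, had the largest rise (difference from GFP 1.47, limma, adjusted p = 3.87e-06), followed by RGS2, which speeds the turn-off of G proteins (0.94, adjusted p = 7.24e-05), and GNAI1, a Gi subunit (0.83, adjusted p = 0.00024). ARRB1, an arrestin that ends receptor signals, fell (-0.91, adjusted p = 2.86e-05). After NR4A1 CEAA 1 of the 20 rose and 5 fell, beside 5.95% of all genes higher and 10.5% lower. The gene that rose was GNAI1 (0.66, limma, adjusted p = 0.00228), which Rank Product did not call (q = 0.123). GNB2 had the largest fall (-0.70, limma, adjusted p = 0.000769), a call that Rank Product kept. GNAI2, another Gi subunit, also fell (-0.53, limma, adjusted p = 0.00704), which Rank Product did not call (q = 0.112). The share called was not tested against other lists. Of these 20 genes, 18 read above the array median throughout, whereas the shares over all genes include dim ones.

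Of 19 measured genes that carry the signal to the cytoskeleton, 0 rose and 7 fell after NR4A1 WT, beside 8.18% of all genes higher and 8.76% lower. PIK3R5, a regulator of the lipid kinase that follows Gi signals, stood at -0.63 (limma, adjusted p = 0.00233), PREX1, an exchange factor of RAC, at -0.53 (adjusted p = 0.0077), and VAV1 and PTK2B at -0.39 and -0.35. Rank Product did not call PREX1, VAV1 or PTK2B (q = 0.0909, 0.307 and 0.404). The genes were counted by their brightest probe set. The other probe set of PREX1 was also called lower, those of PIK3R5 and PTK2B were not called, and VAV1 had only 1. After NR4A1 CEAA 1 rose and 5 fell, beside 5.95% of all genes higher and 10.5% lower, with PTK2B and VAV1 among the 5 at -0.46 and -0.33, neither called by Rank Product (q = 0.195 and 0.486). The VAV1 call after NR4A1 CEAA was lost in 7 of 18 alternatives. Of the 19 genes, 16 read above the array median throughout, whereas the shares over all genes include dim ones.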
